A study of Mus musculus with 2 samples.

Results

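The casein and milk protein genes Csn1s1, Csn1s2a, Csn1s2b, Csn2, Csn3, Wap and Lalba were examined in the leukemic stem cells (LSCs) of mice with a BCR-ABL-driven leukemia that models chronic myeloid leukemia (CML). These 7 genes were chosen by gene symbol out of 23284 symbols, at a time when their FPKM values in these libraries were already known. Their levels and the difference between the libraries are therefore given as a description without a test. LSK cells (lineage-negative, Sca-1+, c-Kit high) of WT or STAP-1 KO donors on the C57BL/6J background were transduced with a retrovirus that carries human BCR-ABL and GFP. The recipients were C57BL/6SJL mice given a lethal dose of irradiation, and they also received C57BL/6SJL bone marrow cells. STAP-1 is an adapter protein encoded by Stap1, and the knockout is a targeted disruption of that gene. GFP+ CD45.2+ LSK cells were sorted at day 11 after the first transplantation, from mice used at 8 to 14 weeks of age. There was 1 library per genotype, and how many animals were pooled into each is not given in the sources used here. BCR-ABL, GFP and the transplantation are common to both groups, and values in WT or STAP-1 KO LSCs are those of the single library. With 1 library each, a difference of genotype cannot be told apart from a difference between animals, sorts or library preparations, and no p-value is given.

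Caseins are the main proteins of milk. Csn1s1, Csn1s2a, Csn1s2b and Csn2 encode calcium-sensitive caseins, and Csn3 encodes kappa-casein, which stabilizes the casein micelle. Wap encodes whey acidic protein, and Lalba encodes alpha-lactalbumin, the regulatory subunit of lactose synthase. In the mammary gland, prolactin activates JAK2 and STAT5 through its receptor, and STAT5 then binds the casein promoters together with the glucocorticoid receptor and C/EBPβ. Casein promoter elements are widely used as reporters of STAT5 activity, also in cells that respond to hematopoietic cytokines. BCR-ABL activates STAT5 as well.

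The promoter sequences are shown first because the DNA element of STAT5 was described on them. RefSeq windows (GRCm38.p6, from 250 bases before to 50 bases after the annotated start) were found for 5 of the 7 genes, Csn1s1, Csn1s2a, Csn2, Wap and Lalba. They were searched for TTCNNNGAA, the core of the STAT5 element, and for TTCNNNNGAA, which has 1 base more between the half-sites. Both motifs read the same on both strands. TTCNNNGAA was found in the windows of Csn1s1, Csn1s2a and Csn2, and TTCNNNNGAA in that of Csn2. Of all 32851 promoter windows in that table, 8.3% hold TTCNNNGAA and 6.95% hold TTCNNNNGAA. Neither was in the windows of Wap and Lalba, which says only that these letters are not there. The following stretches of 30 bases are written 5′ to 3′ on the strand of each gene, with the matched letters in capitals.
Csn1s1: tttgtaacaaTTCTTAGAAtttatgtaaaa
Csn1s2a: ttatagtgctTTCTTAGAAttacaatgact
Csn2: tcacgtagacTTCTTGGAAttgaagggact
Csn2, second stretch: accctagaatTTCTTGGGAAagacaataga
Cish, a STAT5 target gene of blood cells, for comparison: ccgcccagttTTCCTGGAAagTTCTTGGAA

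The match of Csn1s1 lies at chr5:87666108-87666116 on the plus strand, at positions -100 to -92 relative to the RefSeq start. That of Csn2 lies at chr5:87699510-87699518 on the minus strand, at positions -93 to -85 relative to the start, and TTCNNNNGAA at chr5:87699556-87699565, at positions -140 to -131. The match of Csn1s2a lies at chr5:87774470-87774478 on the plus strand. RefSeq places it from base 21 to base 29 of the transcript, whereas the GENCODE coding transcripts start downstream and leave it 89 to 103 bases before their first base. Csn1s1 and Csn1s2a hold the same 9 letters. The matches of Cish lie within the first bases of its RefSeq transcript, at positions 1 to 9 and 12 to 20. In GENCODE the Csn2 coding transcript with the most upstream start begins before both matches of Csn2, so that they lie downstream of that start. The promoter of Csn1s1 is shown at greater length, since no GENCODE exon lies in it, although the GENCODE coding transcripts start downstream of the RefSeq start and leave the match 111 to 117 bases before their first base. These are the 160 bases before the start, chr5:87666048-87666207 on the plus strand.
Csn1s1 promoter: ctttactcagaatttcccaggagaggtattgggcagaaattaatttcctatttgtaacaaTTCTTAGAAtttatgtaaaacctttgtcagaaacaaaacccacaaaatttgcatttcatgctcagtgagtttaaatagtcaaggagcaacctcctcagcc

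Of the 7 genes, 3 caseins had values above 0 in WT LSCs, and all 7 were listed at 0 in STAP-1 KO LSCs. Values are FPKM, fragment numbers divided by transcript length and by the size of the library, so that levels can be compared between genes. Csn1s2a, the alpha-S2-like casein A gene, had 95.9 FPKM in WT LSCs and was listed at 0 in STAP-1 KO LSCs. Csn2, which encodes beta-casein, had 48.1 FPKM in WT LSCs and was listed at 0 in STAP-1 KO LSCs. Csn1s2b, the second alpha-S2-like casein gene, had 1.20 FPKM in WT LSCs and was also listed at 0 in STAP-1 KO LSCs. Csn1s1, Csn3, Wap and Lalba were listed at 0 in both libraries. No fold change is given, because the STAP-1 KO value is 0 for every one of these genes.

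**Figure D1:**
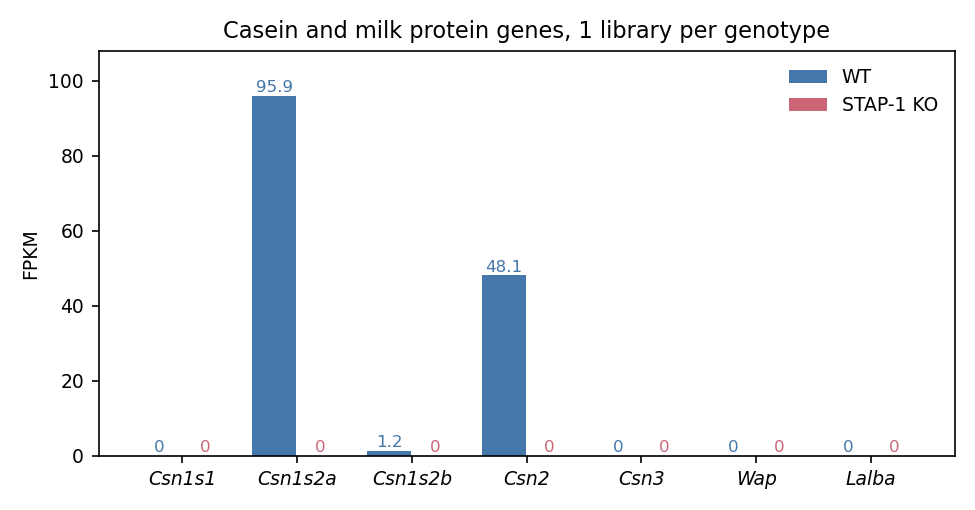
FPKM of the 7 genes in WT LSCs (blue bars) and the STAP-1 KO library (red bars, all at 0), with the value above each bar and 1 library per genotype. Csn1s2a at 95.9 and Csn2 at 48.1 FPKM stand out, Csn1s2b is at 1.20 FPKM, and the other 4 genes are at 0 in both libraries.

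Within WT LSCs the detected caseins differed widely in level. Csn1s2a was 1.99 times as high as Csn2 and 80.1 times as high as its neighbour and paralogue Csn1s2b. The 7 genes summed to 145 FPKM, of which Csn1s2a made up 66.0%, Csn2 33.1% and Csn1s2b 0.824%. This sum was 0.0224% of the total FPKM of that library. Csn1s2a ranked 1170th and Csn2 2456th of all 23284 symbols in WT LSCs, and Csn1s2b ranked 10744th. The median of the symbols with at least 0.1 FPKM in that library was 10.6 FPKM, so that Csn1s2a and Csn2 were above it and Csn1s2b was below it.

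The files do not state read numbers. These were inferred from the spacing of the lowest values, since a single read adds a fixed amount to the FPKM of a gene. Effective depths of 7500000 reads in WT LSCs and 10470000 reads in STAP-1 KO LSCs brought 47.1% of 325 and 48.1% of 401 low values within 0.01 of a whole read. On this scale the WT value of Csn1s2a corresponds to 396 to 509 reads and that of Csn2 to 184 to 403 reads, depending on which coding transcript is taken. That of Csn1s2b corresponds to only 3.73 to 13.1 reads. A count of 0 in STAP-1 KO LSCs allows up to 3 reads, which is 0.402 to 0.517 FPKM for Csn1s2a, 0.256 to 0.557 FPKM for Csn2 and 0.196 to 0.684 FPKM for Csn1s2b. All 3 WT values lie above these limits, Csn1s2b by the least. The limits cover only the counting error of the STAP-1 KO zeros, and the WT read numbers carry an error of their own that is not included. For the genes at 0 in both libraries the limit in WT LSCs was 0.334 to 1.81 FPKM for Csn1s1, 0.289 to 0.513 FPKM for Csn3, 1.18 FPKM for Wap and 0.716 FPKM for Lalba. A count of 0 allows levels up to these limits.

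A value of 0 in such files can also be a failed estimate. Rpl11 and Rpl26, ribosomal protein genes that every cell uses, were listed at 0 in both libraries. Rps12, another ribosomal protein gene, was listed at 0 in WT LSCs and had 3.08 FPKM in STAP-1 KO LSCs. Gapdh was at 0.391 and 1.03 FPKM, whereas Actb had 1291 and 1434 FPKM. For this reason the caseins are described as listed at 0 and not as absent. Their transcripts share no stretch of read length with other genes. Of 1064 different windows of 75 bases in the coding transcripts of Csn1s2a, 0 occurred in the annotated GENCODE transcripts of another gene, and the same held for 1518 windows of Csn2 and 2293 windows of Csn1s2b.

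For the background, 3445 of the 14025 symbols with at least 0.1 FPKM in either library were lower by at least 2-fold in STAP-1 KO LSCs (24.6%), and 1949 were at least 2-fold higher (13.9%), on the scale of log2((STAP-1 KO + 0.1)/(WT + 0.1)). Of the 7 genes, 3 reached this floor, of which 3 were lower and 0 higher. A value of 0 in STAP-1 KO LSCs was less common. Among the 10972 symbols with at least 1 FPKM in WT LSCs, 57 were listed at 0 in STAP-1 KO LSCs (0.52%), and 3 of these were caseins. At the level of Csn1s2b such zeros were more frequent, with 26 of 814 protein-coding genes between 1 and 2 FPKM (3.19%). With at least 40 FPKM in WT LSCs, a level just under that of Csn2, there were 2859 protein-coding genes. Of these, 2, Csn1s2a and Csn2, were listed at 0 in STAP-1 KO LSCs. In the opposite direction, 0 of 2890 protein-coding genes with at least 40 FPKM in STAP-1 KO LSCs were listed at 0 in WT LSCs. With at least 10 FPKM the same counts were 5 of 6730 and 0 of 6160. The 7 genes were chosen on this very contrast, so these numbers place them and lend no support to the difference.

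**Figure D2:**
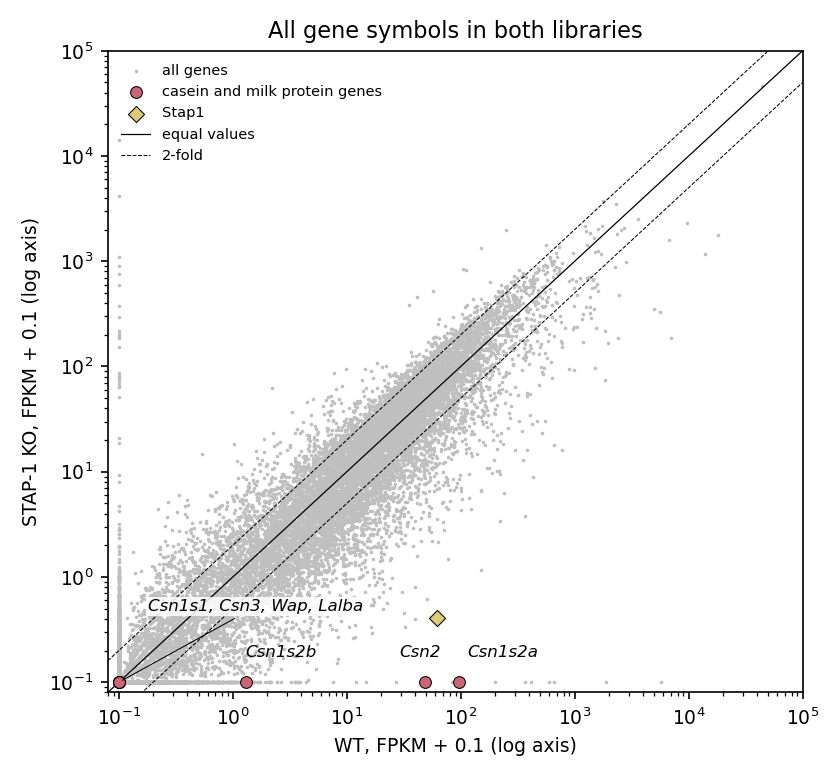
FPKM + 0.1 in WT LSCs (x axis, log) against the STAP-1 KO library (y axis, log) for all 23284 symbols (grey), the 7 casein and milk protein genes (red) and Stap1 (yellow diamond), with lines of equality and of 2-fold difference. Csn1s2a, Csn2 and Csn1s2b lie on the floor of the plot, at 0 FPKM in STAP-1 KO LSCs, and the other 4 genes lie in its lower left corner.

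Genes with the most similar pair of values were sought by the distance on the log2(FPKM + 0.1) scale over the 2 libraries. Among protein-coding genes, the nearest to Csn1s2a was Csn2, at a distance of 0.99. The next were Mmp7, which encodes a matrix metalloproteinase (27.1 FPKM in WT LSCs and 0 in STAP-1 KO LSCs, distance 1.82), and Stap1 itself (distance 2.13), followed by Igfbp5 (2.34) and Erv3 (2.38). For Csn2 the nearest were Mmp7 (0.83), Csn1s2a (0.99), Penk, the proenkephalin gene (1.70), Igfbp5 (1.84) and Pyy, the peptide YY gene (2.00). Penk had 14.7 FPKM and Pyy 11.9 FPKM in WT LSCs, and both were listed at 0 in STAP-1 KO LSCs. When features of all kinds were included, the snoRNA Snora2b (84.3 and 0 FPKM) was nearest to both Csn1s2a and Csn2. Csn1s2b had close company at its low level, with 1700120K04Rik, Gm11944, Nox4, Timp1 and Car4 all between 1.18 and 1.22 FPKM in WT LSCs and at 0 in STAP-1 KO LSCs. Small RNAs such as Snora2b are shorter than most fragments of such a library, and their FPKM values are uncertain.

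The 5 caseins lie in 1 cluster on chromosome 5, and Stap1 lies on the same chromosome. In GENCODE M21 (GRCm38), Csn1s1 is at chr5:87666208-87682578 on the plus strand and Csn2 at chr5:87692624-87699630 on the minus strand. They are followed by Csn1s2a (chr5:87774567-87788797), Csn1s2b (chr5:87808082-87824426) and Csn3 (chr5:87925579-87932665), all on the plus strand. Wap is on chromosome 11 and Lalba on chromosome 15. In the 266 kb from the start of Csn1s1 to the end of Csn3, 11 genes and pseudogenes of RefSeq lie whole, of which 8 are in the files. Of these 8, 3 were above 0 in WT LSCs, all of them caseins that follow each other in the order Csn2, Csn1s2a, Csn1s2b, and 0 were above 0 in STAP-1 KO LSCs. The noncoding gene 1700066N21Rik, which overlaps Csn3 and runs past it, was listed at 0 in both libraries. The flanking caseins Csn1s1 and Csn3 were at 0, as were Prr27, Gm7337 and Odam, an ameloblast gene of the same secretory phosphoprotein family.

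The protein-coding genes nearest to the cluster outside it, the sulfotransferase genes Sult1d1 and Sult1e1 on one side and Cabs1 and Smr3a on the other, were listed at 0 in both libraries. Stap1 ends 1560.1 kb before Csn1s1. It had 62.0 FPKM in WT LSCs and 0.309 FPKM in STAP-1 KO LSCs, in the direction of the labelled genotype. Of 24 features in the files between Stap1 and Csn1s1, 2 were above 0, and their values were close in the libraries. The ubiquitin-activating enzyme gene Uba6, next to Stap1, had 10.7 FPKM in WT LSCs and 8.75 FPKM in STAP-1 KO LSCs, and Ythdc1, an m6A reader gene, had 30.3 and 32.8 FPKM. Past Csn3, the first gene above 0 was Ambn, which encodes the enamel protein ameloblastin, with 5.03 and 1.22 FPKM. Farther on, Jchain had 2.18 and 6.81 FPKM and Utp3 44.3 and 71.9 FPKM, Rufy3 5.37 and 1.38 FPKM, Grsf1 49.0 and 70.7 FPKM, Mob1b 10.4 and 5.16 FPKM and Dck 35.2 and 66.9 FPKM, so that values on this side were lower for some genes and higher for others. The genes nearest to the cluster with a value above 0 in STAP-1 KO LSCs were Ythdc1 on one side and Ambn on the other. No listed feature between them was above 0 in that library. The position of the caseins relative to the targeted gene was not tested for a part in the result.

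**Figure D3:**
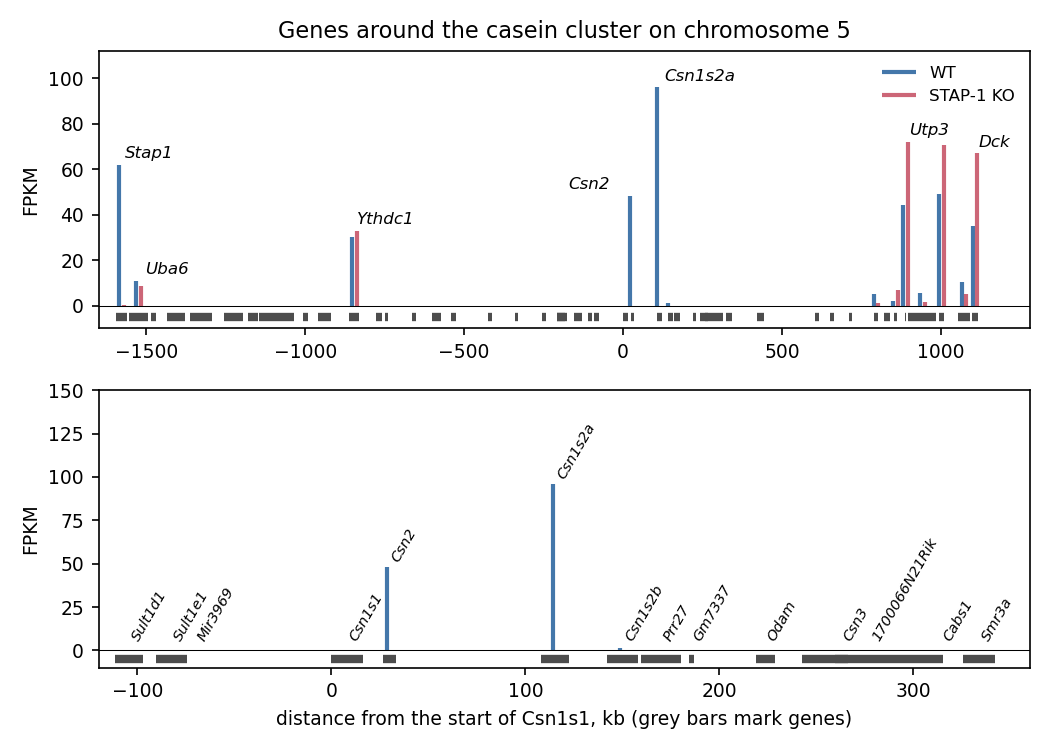
FPKM in WT LSCs (blue) and the STAP-1 KO library (red) of the genes around the casein cluster, by distance in kb from the start of Csn1s1, with grey bars for gene bodies. The upper panel runs from Stap1 to Dck and the lower panel shows the cluster. Within the cluster there are WT values for Csn2, Csn1s2a and Csn1s2b only, while Uba6, Ythdc1, Utp3 and Dck have values in both libraries.

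The next question was whether the genes that drive milk gene transcription were expressed. Prlr, the prolactin receptor gene, was listed at 0 in both libraries, and so were Prl, Pgr, the progesterone receptor gene, and Elf5, a transcription factor gene of the alveolar mammary epithelium. The growth hormone receptor gene Ghr had 0.308 FPKM in WT LSCs and 0.344 FPKM in STAP-1 KO LSCs. Downstream of these receptors, Stat5a had 20.8 FPKM in WT LSCs and 18.3 FPKM in STAP-1 KO LSCs, a log2 ratio of -0.18. Stat5b had 27.8 and 12.9 FPKM (log2 ratio -1.10) and Jak2 48.2 and 13.1 FPKM (-1.87). The glucocorticoid receptor gene Nr3c1 had 23.3 and 7.97 FPKM (-1.54), and Cebpb, which encodes C/EBPβ, 82.5 and 69.7 FPKM. Transcripts of these factors were therefore present in both libraries, with Jak2, Stat5b and Nr3c1 past the 2-fold cut-off.

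Of the 19 receptors and factors listed, 15 had at least 0.1 FPKM in either library. Of these, 5 were lower by at least 2-fold in STAP-1 KO LSCs, 1 was at least 2-fold higher and 9 were within 2-fold. Over all symbols at this floor, 24.6% were lower and 13.9% higher. The median log2 ratio was -0.32 against -0.09 over all symbols at this floor. The one that was higher was the nuclear factor I gene Nfix (3.27 and 8.12 FPKM), whereas its relative Nfia was lower (2.71 and 0.688 FPKM).

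Among 11 negative regulators of JAK2 and STAT5, 4 were at least 2-fold lower, 0 were higher and 7 were within 2-fold, with a median log2 ratio of -0.92, beside 24.6% lower and 13.9% higher over all symbols. Cish, Socs1, Socs2 and Socs3 stand both in this list and in that of the STAT5 target genes. Sh2b3, which encodes the adapter LNK, had 35.0 FPKM in WT LSCs and 7.86 FPKM in STAP-1 KO LSCs. Socs1 had 78.2 and 24.1 FPKM and Pias3 7.67 and 2.69 FPKM. Socs2 had 124 and 65.0 FPKM and did not reach the 2-fold cut-off. Of 11 mast cell markers, 10 were lower too, and their part in these values was not tested.

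The STAT5 target genes of blood cells were read in both libraries. All 20 listed genes reached 0.1 FPKM, and 9 were lower by at least 2-fold in STAP-1 KO LSCs, 2 at least 2-fold higher and 9 within 2-fold, with a median log2 ratio of -0.93, beside the same shares over all symbols. Cish, a SOCS family gene, had 432 FPKM in WT LSCs and 133 FPKM in STAP-1 KO LSCs (log2 ratio -1.70). Il2ra, the IL-2 receptor alpha gene, had 346 and 24.3 FPKM (-3.83), Gzmb, the granzyme B gene, 9642 and 2302 FPKM (-2.07), and Pim2, a survival kinase gene, 103 and 29.0 FPKM (-1.82). Of 11 mast cell markers, 10 were lower as well, with a summed level of 48887 FPKM in WT and 4291 FPKM in STAP-1 KO LSCs. The genes that were higher were Myc (59.3 and 169 FPKM) and Id1 (17.3 and 48.1 FPKM). Of the 14 genes of this list with a RefSeq promoter window, 4 hold TTCNNNGAA, namely Bcl6, Cish, Gzmb and Socs3, against 9.55% of all genes with a window. Of 15 other milk genes with a window, 3 hold it.

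**Figure D4:**
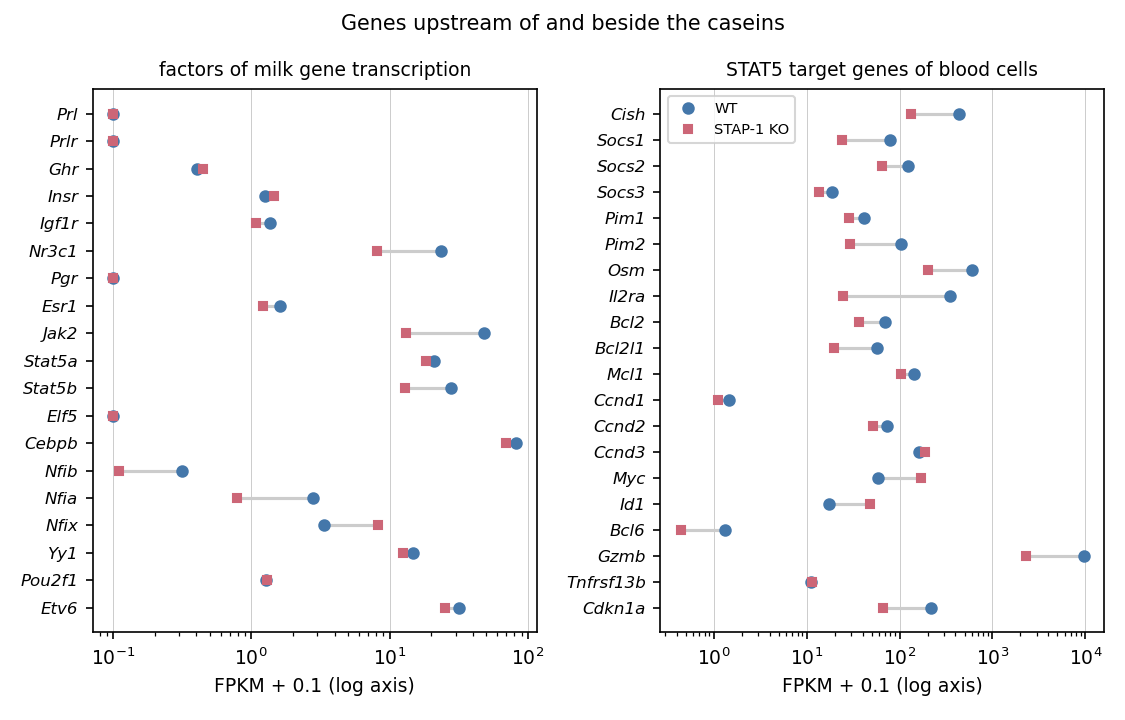
FPKM + 0.1 (log axis) in WT LSCs (blue circles) and the STAP-1 KO library (red squares) of receptors and factors of milk gene transcription (left) and of STAT5 target genes of blood cells (right), 1 library per genotype. Prl, Prlr, Pgr and Elf5 sit at 0 FPKM in both libraries, and all 20 target genes on the right are above 0 in both.

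Other genes whose products are found in milk were placed beside the members. Of 21 listed genes, 15 reached 0.1 FPKM in either library, of which 6 were lower by at least 2-fold in STAP-1 KO LSCs, 2 were at least 2-fold higher and 7 were within 2-fold, with a median log2 ratio of -0.37, beside 24.6% and 13.9% over all symbols. Many of these genes also act outside the mammary gland. Mfge8, which encodes the milk fat globule protein lactadherin, had 122 FPKM in WT LSCs and 22.7 FPKM in STAP-1 KO LSCs, and Ltf, the lactoferrin gene, had 13.7 and 3.69 FPKM. B4galt1, which encodes the galactosyltransferase that alpha-lactalbumin turns into lactose synthase, had 55.5 and 19.8 FPKM, although Lalba was at 0. The fatty acid receptor gene Cd36 had 6.65 and 2.36 FPKM. The other two lower genes, Fabp3 (0.309 FPKM in WT LSCs) and Cidea (0.279 FPKM), were listed at 0 in STAP-1 KO LSCs like the caseins, at less than 1 FPKM. The genes that were higher, Pigr (0 and 0.105 FPKM) and Folr1 (0 and 0.435 FPKM), were likewise low. Trf, the transferrin gene, and Plin2, a lipid droplet protein gene, were within 2-fold, with 74.5 and 79.5 FPKM and with 86.8 and 62.2 FPKM. The osteopontin gene Spp1 was within 2-fold (21.1 and 35.5 FPKM). Glycam1, Muc15, Cel, Lao1 and Slc34a2 were at 0 in both libraries.

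Relatives of the members by protein family were examined as well. Of 15 listed genes with a whey acidic protein domain, 14 were in the files and 8 reached 0.1 FPKM. Of these, 3 were at least 2-fold lower and 1 at least 2-fold higher, beside 24.6% and 13.9% over all symbols. The median log2 ratio was -0.57. Among the genes counted as changed, Wfdc2 (0.267 and 0 FPKM) and Wfdc3 (0 and 0.156 FPKM) were low. Wfdc12 had 62.7 FPKM in WT LSCs and 2.03 FPKM in STAP-1 KO LSCs (log2 ratio -4.88), and Slpi, which encodes a secreted protease inhibitor of leukocytes, had 73.9 and 43.2 FPKM. Of the 7 lysozyme family genes, to which alpha-lactalbumin is related, 5 were at 0 in both libraries. Lyz1 had 0.757 FPKM in WT LSCs and was listed at 0 in STAP-1 KO LSCs, and the macrophage lysozyme gene Lyz2 had 35.2 and 92.0 FPKM. Of the secretory calcium-binding phosphoprotein genes, the family from which caseins derive, 4 of 11 in the files reached 0.1 FPKM. Of these, Ambn (5.03 and 1.22 FPKM) and the bone sialoprotein gene Ibsp (7.18 and 2.08 FPKM) were at least 2-fold lower, beside 24.6% over all symbols. Spp1 and Sparc (1.72 and 3.38 FPKM) were within 2-fold.

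Markers of the cell types in question were given by their values. Of 12 mammary epithelial markers, Krt19, Krt14, Elf5, Prlr and Pgr were at 0 in both libraries. In either library 6 reached 0.1 FPKM, of which 3 were lower and 1 higher by at least 2-fold, beside 24.6% and 13.9% over all symbols. The list summed to 14.5 FPKM in WT LSCs and 22.1 FPKM in STAP-1 KO LSCs. The remaining values came mostly from Epcam (5.97 and 10.9 FPKM), Cdh1 (5.27 and 1.11 FPKM) and Krt18 (1.12 and 8.90 FPKM). Ehf had 0.447 and 0.023 FPKM and Krt5 0.135 and 0 FPKM, so that markers of this list were found on both sides, and their part in the casein values was not tested. The sort took GFP+ CD45.2+ cells, and epithelial cells lack CD45, but the purity of the sort is not given in the sources used here. Of the antigens of the sort, Kit had 468 FPKM in WT LSCs and 30.1 FPKM in STAP-1 KO LSCs, Ly6a, which encodes Sca-1, 285 and 106 FPKM, and Ptprc, which encodes CD45, 107 and 38.2 FPKM.

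Mast cell markers were for the most part lower in STAP-1 KO LSCs. All 11 listed markers reached 0.1 FPKM, and 10 were lower by at least 2-fold in STAP-1 KO LSCs and 1 was at least 2-fold higher. Over all symbols, 24.6% were lower and 13.9% higher. The median log2 ratio of the markers was -3.17. The list summed to 48887 FPKM in WT LSCs and 4291 FPKM in STAP-1 KO LSCs. Among the markers, Cpa3, the mast cell carboxypeptidase gene, had 17984 and 1775 FPKM, Cma1, a chymase gene, 13924 and 1168 FPKM, and Tpsb2, a tryptase gene, 7016 and 185 FPKM. Mrgprb2, a receptor gene of connective tissue mast cells, was at 0.357 and 0 FPKM, and Mrgprb1 at 0 and 0.168 FPKM. The part of these cells in the values of the caseins and of the STAT5 target genes was not tested. In bulk libraries, fewer cells of a type and less RNA per cell cannot be told apart.

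**Figure D5:**
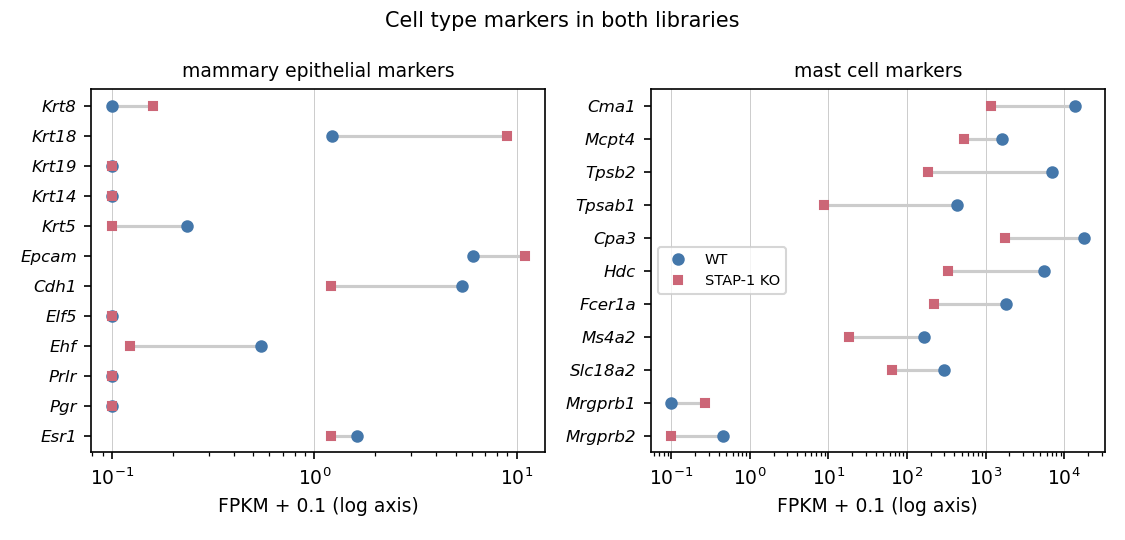
FPKM + 0.1 (log axis) in WT LSCs (blue circles) and the STAP-1 KO library (red squares) of mammary epithelial markers (left) and mast cell markers (right), 1 library per genotype. The mammary markers are at or below 10.9 FPKM in both libraries, and the mast cell markers other than Mrgprb1 are lower in STAP-1 KO LSCs.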

How the data were processed

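RNA-seq had been performed on 1 WT and 1 STAP-1 KO library of sorted LSCs. The authors made cDNA with a SMART-Seq low-input kit, sequenced 75-base single reads, mapped them to mm10 (GRCm38) with TopHat 2.0.13, Bowtie2 2.2.3 and SAMtools 1.0 (0.1.19 in the submitters' processing notes), and deposited FPKM values from Cuffnorm 2.2.1. Gene annotation, library scaling and read totals are not given in the sources used here.

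The members and gene lists were chosen with earlier results of these data known. The genes named are all members, the regulators, up to 5 genes of each list with the largest change at a pseudocount of 1 among those with at least 1 FPKM, cluster neighbours and the genes nearest in value, and a few others, such as Cebpb, Ghr, Uba6, Ythdc1, Myc and Mrgprb1, were named after their values were seen. Log2 ratios used a pseudocount of 0.1 FPKM, which understates the change of low values. Planned log2 ratios of the members are not given, because every STAP-1 KO value is 0. Older symbols were matched through RefSeq (GRCm38.p6), and 23008 symbols matched. Depth was estimated from genes with a single GENCODE M21 transcript and values under 0.3 FPKM, and read numbers of members from it and their coding transcript lengths. Simulated FPKM tables were used to check the counting and the estimate of depth. Python 3.11.15, numpy 2.4.6 and pandas 2.3.3 were used. Promoter sequences are from RefSeq. Some listed genes are not reported here.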

Additional observations from a re-analysis of the deposited data

How the results depend on the processing

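The counts of 3 members at least 2-fold lower and 0 members at least 2-fold higher in STAP-1 KO LSCs were the same under all 12 alternatives. These used other pseudocounts, library scalings, FPKM floors and fold cut-offs or a correction for transcript length, and 1 alternative, leaving out features under 200 bases, was added after seeing the data. Members at 0 keep their direction under any scaling by construction. Over all symbols, the 3445 lower and 1949 higher became 2152 and 1068 at a pseudocount of 1 FPKM, 1261 and 422 at a 4-fold cut-off and 4846 and 3688 at a 1.5-fold cut-off. Among the 3 members above 0 in WT LSCs, depth limits Csn1s2b most, with an estimated 3.73 to 13.1 reads.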

Other observations

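The genes listed at 0 in 1 library with a value in the other were looked at after the values were seen. Besides the caseins, the protein-coding genes with at least 10 FPKM in WT LSCs and 0 in STAP-1 KO LSCs were Mmp7 (27.1 FPKM), Penk (14.7 FPKM) and Pyy (11.9 FPKM), which encode a secreted protease and precursors of secreted peptides. In the opposite direction, 21 protein-coding genes had at least 1 FPKM in STAP-1 KO LSCs and 0 in WT LSCs, against 37 in the direction of the caseins. The highest were Rpl39l, a ribosomal protein gene (9.12 FPKM), Tnfsf13, which encodes the cytokine APRIL (4.62 FPKM), and Saa3, an acute-phase serum amyloid A gene (4.14 FPKM). No test of these differences was possible with 1 library per genotype.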
